A study of Homo sapiens with 13 samples.

Results

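Ribosomal protein genes encode the structural proteins of the cytosolic ribosome, and their messenger RNA was followed here in 4 groups of CCRF-CEM cells, a line of T cell acute lymphoblastic leukemia. Members were all array probes, control spots left out, whose gene name begins with RPL or RPS followed by a digit, or with RPLP, with the RPS6K kinases removed. The rule took 193 probes of 34127, which carry 108 of the 25940 gene names on the array. These were 76 core proteins (46 of the 60S and 30 of the 40S subunit), 8 protein-coding paralogs, 20 pseudogene names, 2 Y-linked genes whose values are not given, and 2 names that only share the prefix, RPS19BP1 and the readthrough RPL36A-HNRNPH2. Of these, 186 probes and 103 genes passed the filter on dim probes, all 76 core genes and all 8 paralogs among them. RPSA and FAU encode ribosomal proteins under other names, so the rule does not take them.

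Total RNA came from parental cells (CEM PA) and from a population made resistant (CEM RES) by culture in rising concentrations of FK866, with cells that withstood 100 nM used here. FK866 inhibits NAMPT, which makes the NAD+ precursor NMN from nicotinamide. Each line was given 5 nM FK866 or DMSO (mock) for 48 h, with 3 arrays of CEM PA mock, 2 of CEM PA FK866, 4 of CEM RES mock and 4 of CEM RES FK866. All groups grew in the same serum-containing medium, and CEM RES was kept in FK866 between experiments. CEM RES is 1 selected population from 1 line, so differences between the lines cannot be separated from what selection of that population brought with it.

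Each mature ribosome carries a single copy of nearly every core protein, so cells make these proteins in matched amounts from a set of highly transcribed genes. Their transcripts begin with a C followed by a run of pyrimidines, the terminal oligopyrimidine (TOP) tract, through which mTOR signalling controls how well they are translated. Several core proteins also act outside the ribosome. RPL5 and RPL11 bind MDM2, a ubiquitin ligase, and RPL5, RPL10 and RPL22 are mutated in a share of T cell leukemias. A few core proteins have a paralog encoded elsewhere in the genome, often with a tissue-restricted pattern.

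Arrays were scanned in 3 sessions, CEM PA in sessions 1 and 2 and CEM RES in session 3, so line and scan session cannot be told apart, while every session held both treatments. Between 26457 and 33239 of 43118 spots per array were well above background, no spot was saturated, and arrays of 1 group correlated at 0.978 to 0.991. CEM RES mock 1 stood apart, with 773 outlier spots against 254 to 294 on the other CEM RES mock arrays and an upper-quartile signal of 537 against 1248 to 1474. Of 15 T cell markers, 13 were above background on all 13 arrays, with CD1D above it on 4 and DNTT on 0. Of 15 markers of other cell types, 7 were above background on all arrays, and COL1A1 and EPCAM on none. The log2 of the summed T cell marker signal ran from 17.31 to 17.54 in CEM PA and from 17.63 to 17.81 in CEM RES, and that of the other markers from 12.75 to 13.11 and from 12.46 to 12.96. In such bulk RNA, fewer cells with a transcript and less of it per cell cannot be told apart.

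The array reads each gene through 60-base probes, and the paralogs can be told from their partners only where the probe sequences differ. The pairs below are shown because the results on paralogs and pseudogene names rest on them. Capitals mark the bases that differ where the probes cover homologous sequence.
RPS27: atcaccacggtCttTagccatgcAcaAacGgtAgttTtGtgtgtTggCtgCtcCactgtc
RPS27L: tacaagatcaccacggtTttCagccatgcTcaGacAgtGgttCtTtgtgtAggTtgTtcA
RPL10: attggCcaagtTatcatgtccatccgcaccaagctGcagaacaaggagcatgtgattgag
RPL10L: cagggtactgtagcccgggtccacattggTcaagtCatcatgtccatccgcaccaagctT
RPL29: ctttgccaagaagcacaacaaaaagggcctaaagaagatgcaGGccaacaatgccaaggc
RPL29P2: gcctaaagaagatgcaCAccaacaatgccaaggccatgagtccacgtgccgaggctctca
The RPS27 probe (hg19 chr1:153964053-153964112, plus strand) and the RPS27L probe (hg19 chr15:63447866-63447925, minus strand) shared 54 bases of overlap and differed at 12 of them. RPL10 and RPL10L differed at 3 of 36 overlapping bases, and RPL29 and RPL29P2 at 2 of 34. Transcripts of the abundant core gene could therefore bind the RPL10L or RPL29P2 probe, and these values are uncertain. In all, 6 pairs of probes from different member genes (12 genes) overlapped by at least 20 bases at 80% identity or more.

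The start sites show how the core genes differ from their paralogs in the TOP tract. The 50 bases from 30 before to 20 after the RefSeq start (GRCh38.p14) are given for 3 pairs described below, with the longest run of C and T from 10 before the start onward in capitals.
RPS27: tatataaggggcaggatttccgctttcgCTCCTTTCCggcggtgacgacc
RPS27L: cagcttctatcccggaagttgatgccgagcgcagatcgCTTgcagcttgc
RPL26: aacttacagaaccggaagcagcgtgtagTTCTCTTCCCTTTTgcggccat
RPL26L1: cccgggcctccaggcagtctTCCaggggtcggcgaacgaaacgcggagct
RPL22: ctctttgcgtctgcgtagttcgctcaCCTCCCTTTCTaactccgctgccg
RPL22L1: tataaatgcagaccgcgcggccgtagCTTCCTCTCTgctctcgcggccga
A run of at least 8 pyrimidines, on the strand that reads as the RNA, lay in that 30-base window in 48 of 61 core promoters matched (78.7%). It lay there in 2 of 6 paralogs (33.3%) and in 12.6% of 27305 promoters. RPL22L1 carried a run of 10, whereas RPS27L and RPL26L1 had none longer than 3 in the window, against 9 in RPS27 and 14 in RPL26. The RPL26L1 run is cut by the edge of the window and continues before it.

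Core ribosomal protein transcripts were among the brightest on the array in every group. On the normalised log2 scale, the mean signal of the 76 core genes had a median of 17.63 against 8.81 over all genes tested, and 73 lay above 15. The brightest probes of 67 core genes were among the 200 brightest on the array. The lowest was RPL27A, part of the 60S subunit, whose only kept probe gave 6.57. RPL22 also lay below 15, at 12.98 in CEM PA mock and 13.13 in CEM RES mock. A probe of RPS2, part of the 40S subunit, was the brightest on 6 arrays, all 5 of CEM PA included, which fixes its value there by the quantile normalisation. Differences of these genes are therefore read near the upper end of the signal range.

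No core gene passed the test for FK866 in CEM PA. Against mock, 62 of the 76 had a positive difference, but a small one: the median log2 fold change was 0.06 (all genes, -0.02), with a range from -0.13 to 0.42. The number passing an adjusted p under 0.05 was 0 in this comparison (0.512% of all 17594 genes passed), and 0 also passed an unadjusted p under 0.05 (13.5% of all genes) or the double threshold of the study's methods, which asks for an unadjusted p under 0.05 together with a log2 difference beyond plus or minus 0.75 (5.47% of all genes). In 15 core genes (19.7%) the CEM PA FK866 and mock arrays did not overlap, against 34.4% of all genes. The 95% interval of the log2 fold change lay inside plus or minus 0.75 for 73 of 76 core genes, the others being RPL27A, RPS3 and RPS12. RPS3, which lines the mRNA entry of the 40S subunit, had the largest fold change, 0.42 with an interval from -0.03 to 0.88 (adjusted p = 0.409). The 60S and 40S genes were alike in this, with medians of 0.06 and 0.07. Within scan session 1, with 1 array of each treatment, the core median was 0.02, and within session 2, with 1 FK866 and 2 mock arrays, it was 0.09. The size of the core median moved with the scaling, to 0.17 when each array was scaled to its 75th percentile and to 0.22 when centred on the median of other genes.

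**Figure D1:**
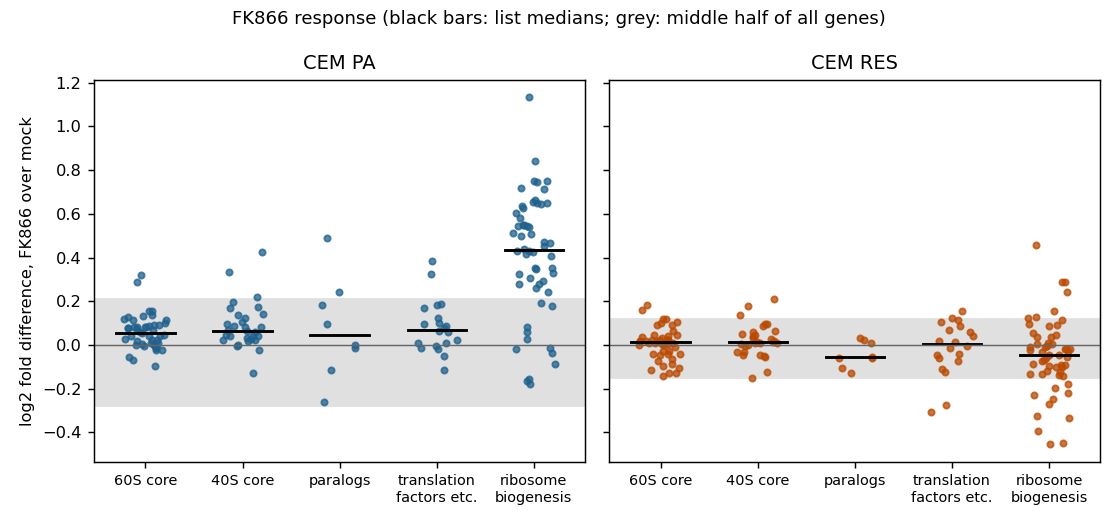
Log2 fold difference of FK866 over mock for each gene in CEM PA (left) and CEM RES (right), with black bars at list medians and the middle 50% of all genes in grey. The core genes of both subunits lie close to 0 in both lines, while ribosome biogenesis genes have a median of 0.43 in CEM PA and -0.05 in CEM RES.

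No core gene passed the test in CEM RES either. Their median log2 fold change was 0.01 (all genes, -0.02), 49 of 76 had a positive difference, and the range ran from -0.15 to 0.21. None passed the adjusted test in limma, nor did any of the 17594 genes (0%), and the counts at an unadjusted p under 0.05 and at the double threshold were 0 for core genes, against 4.78% and 1.34% of all genes. Groups did not overlap for 2 core genes, 2.63% against a background of 2.52%. For 75 of 76 core genes the 95% interval lay inside plus or minus 0.75, RPL27A being outside. The core median was -0.002 within slide 5 and 0.01 within slide 6, and it turned negative, to -0.14 and -0.09, under 75th percentile scaling and centring. The difference in response between the lines passed the test for 0 core genes (0.131% of all genes) and for 0 at an unadjusted p under 0.05 (11.1% of all genes), with a median of -0.06.

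Between the lines, core genes differed more, and in both directions. Under mock, 24 of 76 were higher and 7 lower in CEM RES (40.8%), while 47.7% of all genes passed the same test, 24.7% higher and 23% lower. The share called was thus not above the background, and changes were small: the median absolute log2 difference was 0.28 against 0.55 over all genes, and 5 core genes (6.58%) against 34.6% of all genes passed the double threshold. The median signed difference was 0.15 (all genes, 0.04). Groups did not overlap for 41 core genes (53.9%, background 48.9%). Both subunits took part, with 14 higher and 5 lower of 46 in the 60S and 10 higher and 2 lower of 30 in the 40S. The median of the core genes on each array lay between 17.47 and 17.58 in CEM PA and between 17.66 and 17.74 in CEM RES, with a pooled SD of 0.05 within groups, so that the 2 ranges did not overlap.

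**Figure D2:**
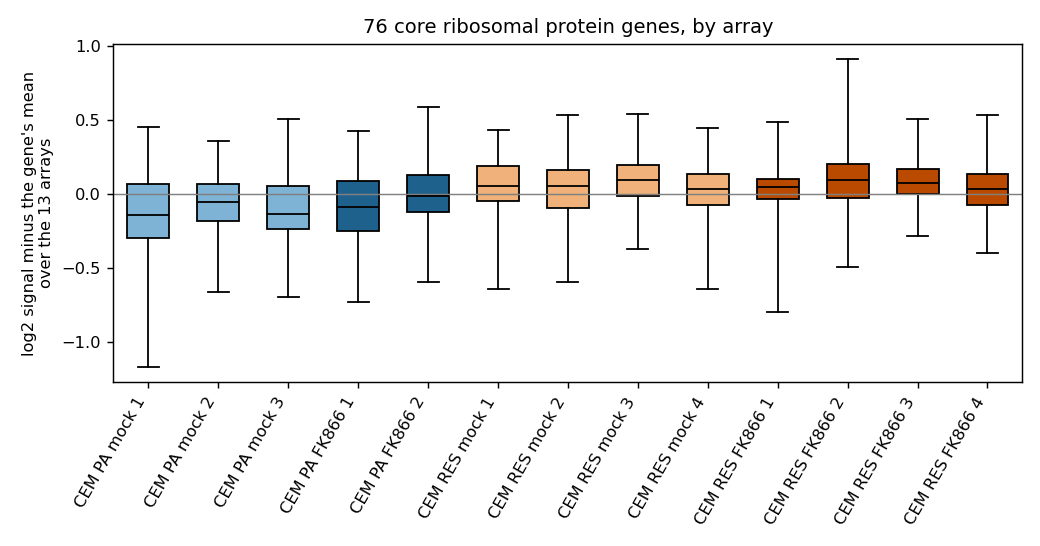
Log2 signal of the 76 core genes on each of 13 arrays, each gene centred on its own mean (boxes: quartiles and median; whiskers: lowest and highest gene). Medians of the CEM PA arrays lie at or below -0.01 and those of the CEM RES arrays at or above 0.03, a shift much smaller than the range of genes within an array.

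The split between higher and lower depended on how arrays were scaled. With 75th percentile scaling 21 core genes were higher and 0 lower, with centring 17 and 2, and 16 and 11 in the deposited log2 values. The 75th percentile scaling also moved the median of all genes to 0.15 under mock and to 0.23 under FK866, so a core gene's difference is best read relative to that shift.

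The 5 core genes past the double threshold were all higher in CEM RES. RPL37, a zinc-binding protein of the 60S subunit, read 15.55, 15.72 and 15.67 on the CEM PA mock arrays, 15.75 and 15.79 on the CEM PA FK866 arrays, 16.80, 16.64, 16.91 and 16.77 on the CEM RES mock arrays and 16.85, 16.74, 16.88 and 16.72 on the CEM RES FK866 arrays. Every CEM RES array was thus above every CEM PA array, and treatment made little difference within a line. The log2 difference was 1.13 ± 0.12 (SE) under mock (adjusted p = 2.11e-05) and 1.03 ± 0.13 under FK866 (adjusted p = 0.000181). Its 60-base probe lies over 265 bases of genome (hg19 chr5:40834324-40834588), so it crosses an intron. A second, dim RPL37 probe gave 0.25 under mock (adjusted p = 0.25).

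RPL15, another 60S protein, was also higher on every CEM RES array than on every CEM PA array. It read 17.23, 17.20 and 17.23 in CEM PA mock, 17.26 and 17.27 in CEM PA FK866, 18.16, 18.24, 18.16 and 18.12 in CEM RES mock and 18.29, 18.34, 18.31 and 18.40 in CEM RES FK866. The lines were far apart next to the spread among arrays, by 0.95 under mock (adjusted p = 3.33e-05) and 1.07 under FK866 (adjusted p = 7.93e-05). A second RPL15 probe gave 0.33 under mock and was not called. Within each line the FK866 arrays lay above the mock arrays, by 0.04 in CEM PA (adjusted p = 0.942) and 0.16 in CEM RES (adjusted p = 0.997). RPL15 and RPL37 were the only core genes past the double threshold under both treatments.

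RPS3 read 14.39, 15.16 and 14.94 in CEM PA mock, 15.15 and 15.36 in CEM PA FK866, 15.91, 15.68, 15.96 and 16.01 in CEM RES mock and 16.00, 15.82, 15.94 and 15.99 in CEM RES FK866. CEM PA mock 1 was the lowest array, and without it the mock difference of 1.06 (adjusted p = 0.000466) was 0.84. Under FK866 it was 0.68 (adjusted p = 0.0192).
RPS13, a 40S protein, read 17.08, 17.34 and 17.28 in CEM PA mock against 18.06, 18.16, 18.06 and 17.91 in CEM RES mock. Its difference was 0.82 under mock (adjusted p = 0.000281) and 0.56 under FK866 (adjusted p = 0.0101). RPL30, a 60S protein, read 15.66, 16.22 and 16.10 in CEM PA mock against 16.64, 16.79, 16.89 and 16.73 in CEM RES mock, a difference of 0.77 (adjusted p = 0.00346). CEM PA mock 1 was again lowest, and the RPL30 difference without it was 0.60 (adjusted p over the arrays left out in turn, 0.00229 to 0.0177).

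The genes lower in CEM RES moved by less. RPL26, a 60S protein, read 17.44, 17.33 and 17.45 in CEM PA mock, 17.34 and 17.51 in CEM PA FK866, 16.78, 16.69, 16.94 and 16.85 in CEM RES mock and 16.94, 16.77, 16.92 and 17.00 in CEM RES FK866. Every CEM RES array was below every CEM PA array, by -0.59 under mock (adjusted p = 0.0018) and -0.52 under FK866 (adjusted p = 0.0115). RPL14, also of the 60S subunit and named after its values were seen, had the lowest difference, -0.64 (adjusted p = 0.0015), with 17.61, 17.56 and 17.78 in CEM PA mock against 17.20, 16.94, 16.96 and 16.93 in CEM RES mock. RPS9 (-0.52) and RPL9 (-0.43), chosen in the same way, passed as well. A second RPS9 probe gave 0.27 and was not called.

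Members known from disease went different ways. RPL11, the MDM2-binding partner of RPL5, was lower in CEM RES under mock, at 17.17 ± 0.10 (SD, n = 4) against 17.55 ± 0.03 (SD, n = 3), a difference of -0.38 (adjusted p = 0.0147). RPL5 itself differed by 0.15 (adjusted p = 0.311). RPS14, the gene of the 5q- syndrome, differed by -0.43 (adjusted p = 0.0169), but by 0.11 when its probes were averaged. RPL7, a 60S protein with the same caveat, differed by -0.46 (adjusted p = 0.013) and by 0.01 on averaging. RPS19, mutated in Diamond-Blackfan anemia, was higher by 0.54 (adjusted p = 0.00244) and RPLP0, the base of the ribosomal stalk, by 0.43 (adjusted p = 0.0104). A second RPLP0 probe gave -0.13 and was not called. RPS6, the substrate of S6 kinases, and RPL10 differed by 0.07 and 0.04 and did not pass (adjusted p = 0.64 and 0.805). The 95% intervals of these last 2 differences ran from -0.17 to 0.31 and from -0.22 to 0.30. They hold for the brightest probe only. The 4 RPL10 probes gave 0.04 to 1.67, with 2 called higher, and the 2 RPS6 probes 0.07 and 0.42, with 0 called.

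Under FK866 the same comparison of lines called 13 core genes higher and 4 lower (22.4%; background 35.5%, 18.6% higher and 16.9% lower), with a median of 0.11 (all genes, 0.09). Scaling changed this, to 6 higher and 2 lower with a median of 0.001 under 75th percentile scaling and to 4 and 3 with a median of -0.09 under centring. The double threshold took 2 core genes (2.63%) against 29.6% of all genes, and 50 core genes did not overlap between the lines (65.8%, background 57.7%). Of the 31 core genes called under mock, 16 were called under FK866, each with its mock sign, and 71 of 76 had the same sign in both. This count rested on the pair of CEM PA FK866 arrays: without CEM PA FK866 1 it was 4, without CEM PA FK866 2 it was 6, without CEM RES FK866 2 or CEM RES FK866 3 it was 10, and with the replicate number as a block it was 10.

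**Figure D3:**
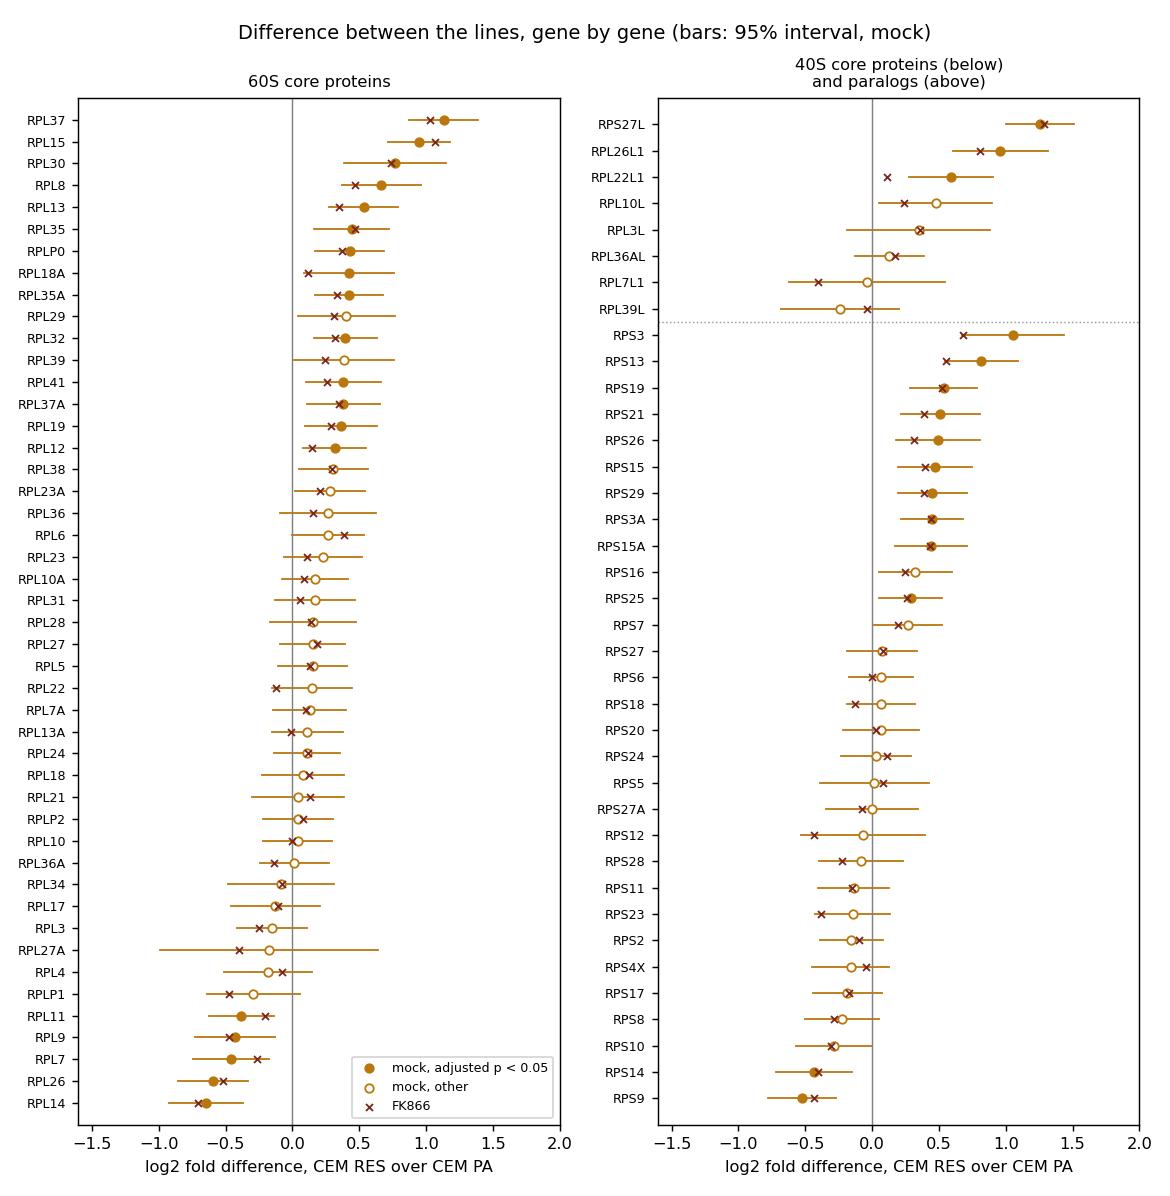
Log2 fold difference of CEM RES over CEM PA for the 46 core 60S genes (left) and the 30 core 40S genes and 8 paralogs (right); circles are mock, filled where the adjusted p was under 0.05, bars their 95% interval and crosses FK866. RPL37 (1.13), RPS3 (1.06), RPS27L (1.26), RPL26L1 (0.96) and RPL15 (0.95) lie farthest to the right under mock, and RPL14 and RPL26 farthest to the left among 60S genes under mock.

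Among the paralogs, 3 of 8 were higher in CEM RES under mock and 0 lower (37.5%, not above the background of 47.7%). For FK866 0 of 8 passed the adjusted test in either line (background 0.512% in CEM PA and 0% in CEM RES), with RPL22L1 at an unadjusted p of 0.0147 in CEM PA and none under 0.05 in CEM RES. RPS27L, a close relative of RPS27, read 12.99, 12.94 and 13.01 in CEM PA mock, 12.90 and 13.06 in CEM PA FK866, 14.20, 14.23, 14.36 and 14.15 in CEM RES mock and 14.17, 14.21, 14.34 and 14.33 in CEM RES FK866. The lines did not overlap, and the difference was 1.26 ± 0.12 (SE) under mock (2.39-fold, adjusted p = 9.83e-06) and 1.28 under FK866 (adjusted p = 5.17e-05). RPS27, by contrast, stood at 18.45 ± 0.05 (SD, n = 3) in CEM PA mock and 18.52 ± 0.15 (SD, n = 4) in CEM RES mock, a difference of 0.07 with an interval from -0.19 to 0.34.

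RPL26L1 showed the opposite direction to RPL26. It read 12.18, 12.64 and 12.45 in CEM PA mock, 12.41 and 12.63 in CEM PA FK866, 13.19, 13.46, 13.60 and 13.26 in CEM RES mock and 13.34, 13.46, 13.42 and 13.05 in CEM RES FK866. All CEM RES arrays were above all CEM PA arrays, by 0.96 under mock (adjusted p = 0.000562) and 0.80 under FK866 (adjusted p = 0.00562).
RPL22L1, which shares its fold with the T cell tumour suppressor RPL22, was higher in CEM RES under mock. It read 16.33, 16.50 and 16.08 in CEM PA mock, 16.73 and 16.85 in CEM PA FK866, 16.81, 16.90, 17.11 and 16.74 in CEM RES mock and 16.90, 16.83, 17.06 and 16.81 in CEM RES FK866. CEM PA mock was the low group. The line difference was 0.59 under mock (adjusted p = 0.0053) and 0.11 under FK866 (adjusted p = 0.635), and the FK866 difference in CEM PA was 0.49 (adjusted p = 0.234). The test of the difference in response between lines gave -0.48 (adjusted p = 0.444), so a treatment-dependent line difference was not shown. RPL22 differed by 0.15 under mock (adjusted p = 0.405).

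The other paralogs did not pass between the lines under mock. RPL10L, an RPL10 copy active in testis, differed by 0.47 (adjusted p = 0.0601), RPL3L, the striated muscle form of RPL3, by 0.35 at a signal between 6.14 and 7.44, RPL36AL by 0.13, RPL39L, a testis form of RPL39, by -0.24 and RPL7L1 by -0.04.

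The balance of paralog to core partner was compared on each array as a difference in log2 signal, which is the same under any single factor per array. Quantile normalisation is no such factor, so the values shift somewhat with the scaling used. Line labels were permuted within each treatment in all 525 ways, two-sided, with adjustment over 8 pairs; the smallest p this allows is 0.0019. That treats the mock and FK866 arrays of a line as independent, although same-numbered arrays deviated together. When whole replicate sets changed line, in 35 ways with a smallest p of 0.0286, 0 of 8 pairs passed after adjustment, so the calls below rest on single arrays being exchangeable. Probe affinities differ, so these values compare a pair between lines and give no ratio of transcripts. RPS27L minus RPS27 ran from -5.66 to -5.39 in CEM PA and from -4.50 to -4.11 in CEM RES, a shift of 1.19 (exact p = 0.0019, adjusted p = 0.00762; with whole sets, exact p = 0.0286 and adjusted p = 0.0571). RPL26L1 minus RPL26 ran from -5.26 to -4.69 and from -3.95 to -3.24, a shift of 1.44 with the same p values. In these 2 pairs, 8 of 8 CEM RES arrays lay above all 5 CEM PA arrays. In the first pair RPS27L differed between the lines and RPS27 did not pass, and in the second both passed, in opposite directions.

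Smaller shifts in the same direction passed with single arrays for RPL3L (0.55, exact p = 0.00571, adjusted p = 0.0152), RPL36AL (0.21, exact p = 0.0152, adjusted p = 0.0305), RPL22L1 (0.34, exact p = 0.021, adjusted p = 0.033) and RPL10L (0.34, exact p = 0.0248, adjusted p = 0.033), with 5 to 6 of 8 CEM RES arrays above all CEM PA arrays. With whole sets their adjusted p ran from 0.0571 to 0.114, and the RPL10L shift turned to -0.35 when each gene's probes were averaged. Those of RPL36AL, RPL22L1 and RPL10L no longer passed without certain arrays, such as CEM PA mock 3, where they were 0.17, 0.26 and 0.30. RPL39L minus RPL39 shifted by -0.46 (exact p = 0.0476, adjusted p = 0.0544) and RPL7L1 minus RPL7 by 0.14 (exact p = 0.562).

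**Figure D4:**
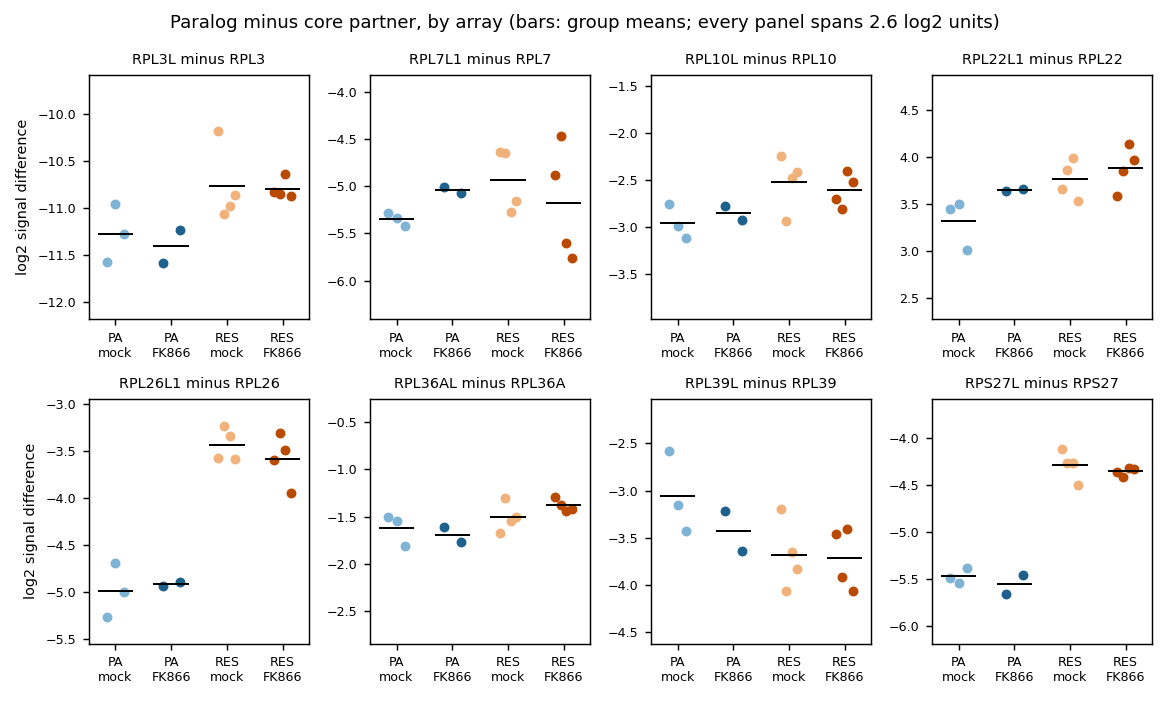
Log2 signal of each paralog minus that of its core partner on each array, by group, with group means as bars; every panel spans 2.6 log2 units. The CEM RES points lie above all CEM PA points for RPL26L1 and RPS27L, whose shifts are 1.44 and 1.19, and the lines overlap in the other panels.

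Names of pseudogenes gave the widest range. Of 20 such names 17 passed the filter (RPL23AP64, RPL31P11 and RPL36AP33 did not), and 6 were higher and 1 lower in CEM RES under mock (41.2%, not above the background of 47.7%). RPL23AP53, among the 6 higher names, differed by 0.59 (adjusted p = 0.00529), but its second probe gave -1.28 and was called lower. RPL32P3 read 14.14, 14.09 and 14.12 in CEM PA mock, 14.54 and 14.19 in CEM PA FK866, 16.49, 16.23, 16.45 and 16.36 in CEM RES mock and 16.39, 16.33, 16.51 and 16.36 in CEM RES FK866. CEM RES was higher on every array, by 2.27 under mock (adjusted p = 4.99e-07), although a second RPL32P3 probe close to the noise gave -0.40 (adjusted p = 0.427).
RPL13P5 differed by 2.25 (adjusted p = 0.00248), RPL29P2 by 1.20 (adjusted p = 0.000388), with the probe overlap shown above, and RPS15AP10 by -1.40 (adjusted p = 0.00331). The RPL13P5 probe used read 7.38, 9.25 and 9.49 in CEM PA mock, and a second RPL13P5 probe gave 0.20 and was not called. RPS16P5, also among the 6 higher names, was well above background on 4 of 4 CEM RES mock arrays but on only 1 of 3 CEM PA mock arrays. It passed the filter only through the line where it was high, so no size is given and its call supports nothing. RPL36A-HNRNPH2, a readthrough of RPL36A into HNRNPH2, differed by -1.29 (adjusted p = 0.029), with CEM PA mock 1 at 9.23 against 7.18 and 7.21 on the other CEM PA mock arrays.

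Probes of 1 gene did not always give 1 answer. Of 42 core genes with more than 1 kept probe, 18 had probes of opposite sign between the lines under mock, and RPS21 and RPS2 had probes called in each direction. For RPS21, a 40S protein, the bright probe (hg19 chr20:60962941-60963394, across an intron) gave 0.51 (adjusted p = 0.00949) and a second gave 0.84. The dimmest (hg19 chr20:60963037-60963096) gave -1.03 (adjusted p = 0.00391). It matches unbroken sequence within the intron that the bright probe crosses, so it does not read the spliced form that the bright probe reads. For RPS2, 2 probes gave -0.15 and -0.06, another -0.40 (adjusted p = 0.0298) and the dimmest 1.16 (adjusted p = 0.000795).
RPL22 had a second probe at -1.20 (adjusted p = 3.28e-05) beside 0.15 for the one used, and the probes of RPS26, a 40S protein, gave 0.49, 1.94 and 3.27. Over all 154 kept core probes 50 were higher and 11 lower in CEM RES (background 47.6% of 22751 probes).

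The dimmer probes were also where FK866 differences in CEM PA appeared. Of 154 core probes, 7 passed the double threshold, 6 higher and 1 lower, no more than the share over all probes (6.69%), and 1 passed the adjusted test (1.53% of all probes). They were picked out after their values were seen. The adjusted call was an RPL28 probe (hg19 chr19:55899028-55899087, plus strand), which read 8.91, 9.13 and 9.66 in CEM PA mock, 10.70 and 10.79 in CEM PA FK866, 9.51, 9.58, 9.58 and 9.47 in CEM RES mock and 9.17, 9.52, 9.44 and 9.31 in CEM RES FK866. Both CEM PA FK866 arrays thus lay above all 11 others. The FK866 difference was 1.52 in CEM PA (adjusted p = 0.00513) and -0.17 in CEM RES (adjusted p = 0.983), and the test of the difference between these gave -1.69 (adjusted p = 0.0186). This was the only core probe past that test, which 0.413% of all probes passed.

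A like pattern was measured at dim probes of RPS27 (hg19 chr1:153963726-153963785), RPS6 (hg19 chr9:19378942-19379001) and RPS21, with FK866 differences in CEM PA of 1.33 (adjusted p = 0.0507), 1.32 (adjusted p = 0.0644) and 1.08 (adjusted p = 0.0866), none of which passed. In CEM RES these probes gave 0.05, 0.06 and 0.18. The RPS27 probe read 7.69, 8.11 and 8.01 in CEM PA mock and 9.28 and 9.26 in CEM PA FK866. Each of these 4 probes matches an unbroken 60-base stretch of genome. Apart from the dimmest RPS21 probe, placed above, whether they lie in an exon or an intron was not determined here. The lower one was an RPL10 probe not well above background on either CEM PA FK866 array.

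**Figure D5:**
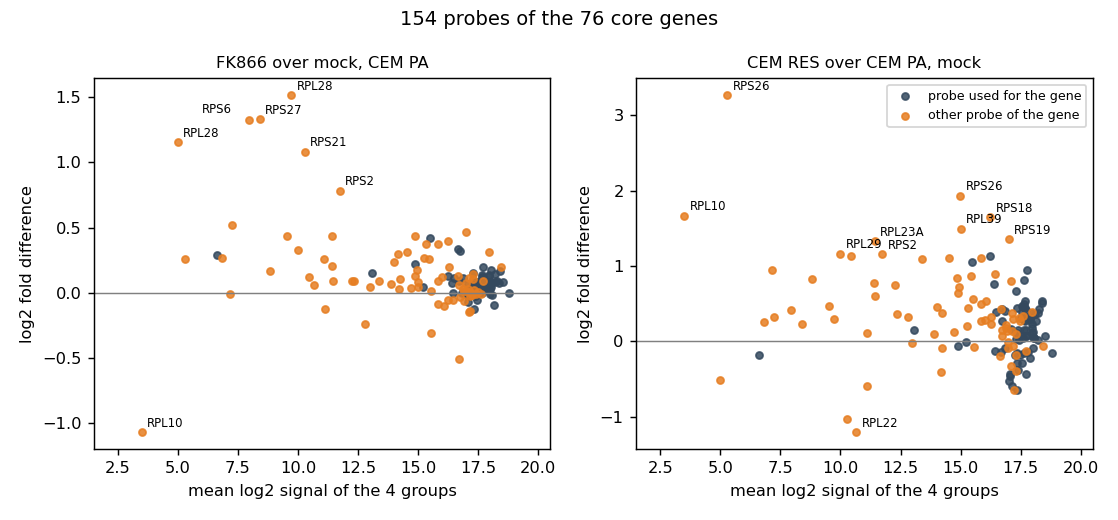
Each of the 154 kept core probes by its mean log2 signal (horizontal axis) and its log2 fold difference (vertical axis) for FK866 in CEM PA (left) and between the lines under mock (right); dark points are the probe used for its gene. The probes used cluster above 15 and near 0, and the widest differences sit at lower signals, such as the RPL28 probe at 1.52 on the left and an RPS26 probe at 3.27 on the right.

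Genes around the ribosome were read from 3 further lists. RPSA and FAU, ribosomal proteins under other names, did not pass between the lines under mock. Of 20 translation factors and other TOP mRNAs, 2 were higher and 8 lower in CEM RES under mock (50%, near the background of 47.7%), with a median of -0.18 against 0.15 for the core ribosomal proteins. This split under mock rested on the scaling. It was 3 higher and 3 lower with a median of -0.02 under 75th percentile scaling, and 2 and 4 with a median of -0.11 under centring. The lower ones included NAP1L1, a histone chaperone (-0.90, adjusted p = 0.000466), EEF2, the elongation factor that moves the ribosome along mRNA (-0.77, adjusted p = 0.000511), and TPT1 (-0.71, adjusted p = 0.000418). EIF3K, an initiation factor subunit (0.75, adjusted p = 0.00279), and BTF3, part of the nascent chain complex (0.44, adjusted p = 0.012), were higher. Between the lines under FK866, 1 of the 20 was higher and 9 lower (50%, background 35.5%), with a median of -0.265. There the counts were 1 and 7 with a median of -0.262 under 75th percentile scaling (background 39.9%). Under centring they were 1 and 8 with a median of -0.349 (background 39.1%). FK866 changed 0 of the 20 in either line by the adjusted test (background 0.512% in CEM PA and 0% in CEM RES). At an unadjusted p under 0.05 there were 0 in CEM PA (background 13.5%) and 1 in CEM RES (5%, near the background of 4.78%).

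Ribosome biogenesis genes, which act mostly in the nucleolus on rRNA and pre-ribosomes, were more often called higher than lower in CEM RES. Of 56, 27 were higher and 3 lower under mock (53.6%), against 24.7% and 23% of all genes (47.7% in all), with a median of 0.54 (core genes, 0.15). Under FK866 11 were higher and 4 lower (26.8%, below the background of 35.5%), with a median of 0.11. MRTO4, which prepares the 60S stalk, read 7.76, 7.59 and 7.18 in CEM PA mock against 10.31, 11.29, 10.45 and 10.01 in CEM RES mock, a difference of 3.01 (adjusted p = 3.56e-05). NOLC1, a nucleolar chaperone of small RNA particles, differed by 2.60 (adjusted p = 5.02e-06) and UTP20, of the small subunit processome, by 2.59 (adjusted p = 0.000148). TAF1C, a factor of RNA polymerase I, differed by -0.79 (adjusted p = 0.00194), EFTUD1, which releases a late 60S factor, by -0.58 (adjusted p = 0.00331) and the helicase DDX18 by -0.54 (adjusted p = 0.0498).

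Under FK866 the biogenesis genes in CEM PA had a median of 0.43, and 49 of 56 had a positive difference (87.5%, against 47.4% of all genes), with 11 at an unadjusted p under 0.05 (19.6%, background 13.5%). Several read low on CEM PA mock 3, which raises their FK866 difference and their line difference under mock. NOP16 read 12.04, 12.26 and 10.70 in CEM PA mock and 12.44 and 12.40 in CEM PA FK866. Others did not, such as NOP10 (14.21, 14.14 and 14.17 against 14.60 and 14.65). The list median without that array is not given here. The adjusted test passed 1 (1.79%, background 0.512%), TAF1A, another polymerase I factor, which read 9.37, 9.35 and 9.40 in CEM PA mock and 10.42 and 10.59 in CEM PA FK866 (1.13, adjusted p = 0.0358). The median in CEM PA was 0.49 under 75th percentile scaling and 0.54 under centring. In CEM RES their median was -0.05 (0.003 under centring), and the difference in response between lines passed for 0 of 56, with a median of -0.49 and 9 at an unadjusted p under 0.05 (16.1%, background 11.1%).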

How the data were processed

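RNA of 13 samples was measured on 1-colour Agilent Human GE 4x44K v2 arrays, 1 array per sample, labelled as biological replicates, with what separated them (culture or day) not given. The authors deposited each array's spot intensity (gProcessedSignal, corrected for background by Feature Extraction; version 10.7.3.1 in the file headers, 10.7.7.1 in the submitters' processing notes) and a table of log2 values, whose normalisation is not described in the sources used here. Probe positions are on hg19.

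From the intensities, log2 was taken, outlier and control spots were left out, arrays were quantile normalised, as in the study's methods, and spots of a probe averaged. A probe was kept when, in some group, all arrays read it well above background (22751 of 34127), and the brightest kept probe stood for its gene (17594 genes). A 4-group model was fitted with limma 3.58.1 in R 4.3.3, and p-values were adjusted over all genes by Benjamini-Hochberg, with "rose", "higher" or "called" at adjusted p under 0.05. Values are log2 differences. With 2 to 4 arrays per group, array number limits the precision. Same-numbered arrays of a line deviated together (correlations 0.342 to 0.44 in CEM PA and 0.217 to 0.484 in CEM RES). Pairs on the same slide gave 0.44, 0.39 and 0.484, and the others 0.342, 0.217 and 0.295. Whether the numbers pair treatments within a line is not given, and the main fit took the arrays as unpaired. The fit was tested on simulated data.

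Members and lists were chosen with earlier results of these data known. Named were all paralogs and partners, 8 members known from disease or use, core genes past the double threshold without overlap, up to 3 genes per direction of each other list, and 4 genes whose probes disagree. Alternatives covered scaling, background, filter, probe choice, blocks, weights and each array left out. All 103 kept member symbols were found in RefSeq. One gene of the list of ribosomal proteins under other names is not reported here.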

Additional observations from a re-analysis of the deposited data

Results flagged for a closer look

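Of 64 sets of 4 arrays screened for 1 array far from the rest, 4 stood out, and chance flags about 1 in 20 such sets. RPL3L read 7.0 in CEM RES FK866 replicate 3 against 6.54 to 6.61 on the other arrays of that group. RPL10L read 15.07 in CEM RES mock replicate 2 against 15.65 to 15.72. RPS19 read 17.84 in CEM RES mock replicate 4 against 17.95 to 17.97, and RPL30 read 16.94 in CEM RES FK866 replicate 3 against 16.75 to 16.77. An RPL28 probe other than the one used for the gene responded to FK866 differently in the 2 lines by the test of that difference, -1.69 in CEM RES relative to CEM PA (adjusted p = 0.0186 in limma over all probes).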

How the results depend on the processing

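Line calls for RPS27L, RPL37, RPL15 and RPL32P3 held under all 26 alternatives at both treatments, and those of RPL26L1, RPL22L1, RPS3, RPS13, RPL30 and RPS19 under mock. Over 28 named results and 728 refits, 673 kept direction and call, 51 lost the call and 4 reversed: RPLP0 under FK866 (-0.016, centred on other genes), and, with probes averaged, RPL23AP53 (-0.344), RPL7 (0.013) and RPS14 (0.112) under mock. RPLP0 under FK866 lost its call in 18. Line and scan session cannot be told apart, and core signals lie near the top of the scale. The cause of each change below was not tested, except where fewer arrays entered.

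Core medians moved as follows. With 75th percentile scaling they were 0.168 (FK866 in CEM PA), -0.14 (FK866 in CEM RES), 0.239 (lines, mock) and 0.001 (lines, FK866), and with centring 0.22, -0.088, 0.151 and -0.087. The lines differed by 0.032 (mock) and 0.04 (FK866) in the deposited table, and under mock by 0.267 over every probe and 0.101 with array weights. Counts of core calls between lines under mock (31 of 76) were 19 with centring and 18 with only the groups compared. Over all genes the shares called were 47.7% in the main fit, 47% and 41.3%. Taking every probe, 61 of 154 core probes were called, against 47.6% of all probes. The counts under FK866 (17 of 76, background 35.5%) follow with the share over all genes in parentheses. They were 8 with 75th percentile scaling (39.9%), 7 with centring (39.1%), 30 with normexp (33.2%) and 11 without the filter (21.4%). With array weights the count was 26 (45%) and with an intensity trend 30 (36.8%). Taking every probe, 45 of 154 core probes were called (36% of all probes). The replicate block gave 10 (33.7%) and changed no other call count by over 1.5 times. For FK866 in CEM PA the double threshold took 1 with probes averaged, 1 with slide as a block and 7 over every probe, where 1 also passed the adjusted test and 1 differed in response. Higher calls made up 77.4% of calls under mock and 76.5% under FK866, against 59.3% and 56.2% in the deposited table, 89.5% and 57.1% with centring and 100% and 75% with 75th percentile scaling.

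An alternative chosen after seeing the data permuted whole replicate sets. It left the ratios of RPS27L (1.191), RPL26L1 (1.438), RPL3L (0.553), RPL22L1 (0.339), RPL10L (0.337) and RPL36AL (0.212) as they were, but none passed, and 0.0571 is the smallest adjusted p it gave. Paralog ratios reversed for RPL7L1 (-0.094 with either array scaling, -0.212 with probes averaged) and RPL10L (-0.346 with probes averaged). RPL36AL did not pass at 0.227 (either scaling) and 0.113 (normexp), nor RPL22L1 at 0.261 (normexp). RPL39L passed at -0.714 (either scaling), -0.638 (normexp), -0.501 (deposited table) and -0.87 (probes averaged). Leaving out each array in turn gave 24 to 31 calls under mock, 4 to 19 under FK866, and ratios of 0.292 to 0.407 (RPL10L), 0.261 to 0.389 (RPL22L1), 0.165 to 0.25 (RPL36AL) and -0.561 to -0.337 (RPL39L).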
